A study of Homo sapiens with 2 samples.

Results

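The E2F family and its dimer partners were followed in H9, a human T lymphoma cell line labelled wild type, before and after a short exposure to doxorubicin. Doxorubicin, an anthracycline, poisons topoisomerase II and so leaves breaks in DNA. The 10 genes, E2F1 to E2F8 with TFDP1 and TFDP2, were taken by symbol from a table of 19220 gene symbols. The rule uses no measured value, but the members were chosen with earlier results of these data known. One library of poly(A)-selected RNA came from cells at 0 h and 1 from cells kept for 6 h with doxorubicin at 0.05 µM, both grown in the same serum-supplemented medium. With 1 library per condition no value has a replicate, and neither a test nor a p-value is given. A gene called higher or lower is so in these 2 libraries, and every interval covers counting error only.

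E2F proteins bind promoters of genes for S phase entry, DNA synthesis and repair, mostly as dimers with a DP protein, which TFDP1 and TFDP2 encode. E2F1, E2F2 and E2F3 are known as activators that the retinoblastoma protein holds in check until cyclin-dependent kinases phosphorylate it. E2F4 and E2F5 repress mainly with the pocket proteins p107 and p130, E2F6 represses without pocket proteins as part of a Polycomb complex, and E2F7 and E2F8 are atypical repressors that bind DNA without a DP partner. DNA damage is known to stabilize E2F1 protein, which mRNA counts do not show, and E2F7 is a known p53 target. The part of p53 in the E2F7 ratio was not tested.

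The untreated library held 33730703 counts and the treated library 50174434. Of 11 T cell markers, 8 reached 100 counts summed over both libraries, among them CD3E, LCK and ZAP70, while CD2, CD7 and CD28 had few. B cell, myeloid, epithelial, fibroblast and pluripotent stem cell lists had 2 of 5, 0 of 4, 1 of 4, 1 of 3 and 1 of 4 markers at that count. In CPM, counts divided by the scaled library size in megareads, CD79A reached 182 untreated and 129 treated, and EPCAM 78.6 and 63.0, while CD3E stood at 217 and 173. The part of these markers in the results was not tested.

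All 10 family members were measured, that is, had at least 100 counts summed over both libraries. None differed by the size rule, which asks for a ratio of at least 1.5-fold and a 95% counting interval that leaves out a ratio of 1. In the whole table the same rule called 816 of 11244 measured genes higher, or 7.26%, and 1076 lower, or 9.57%. Of all calls 43.1% were higher, and 56.0% with scaling by total counts. The members' median log2 ratio of treated over untreated was 0.10, with a range from -0.16 to 0.50, beside a median of 0.01 and an interquartile range from -0.28 to 0.27 for all measured genes. The counting interval lay above a ratio of 1 for 6 members, spanned it for 4 and lay below it for 0. Of all measured genes, 38.1% had intervals above and 36.9% below. With both lengths and GC content adjusted for, as described below, 5 members' intervals lay above 1, 3 spanned it and 2 lay below. In bulk RNA a change in the share of cells that express a gene and a change in RNA per cell cannot be told apart.

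**Figure D1:**
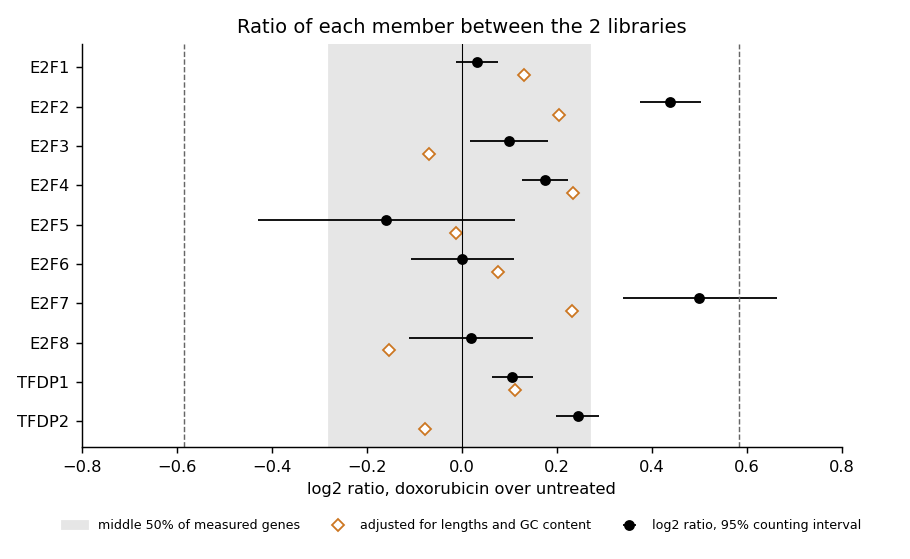
Log2 ratio of doxorubicin over untreated for each member (black points, with 95% counting intervals as bars) and the same ratio adjusted for both lengths and GC content (open diamonds). The shaded band is the interquartile range of all measured genes and the dashed lines are the 1.5-fold limit, at 0.58 either side of 0. E2F7 and E2F2 lie to the right of the band, at 0.50 and 0.44, and all 10 points lie inside the dashed lines.

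Among the activators, E2F2 had the highest ratio. E2F2 had 2902 counts untreated and 6136 treated, which is 88.1 and 119 CPM. It was 1.36-fold higher in the treated library (1.30 to 1.42), a ratio above those of 86.6% of measured genes but under the size limit. E2F1, the activator most closely tied to the DNA damage response, had 6825 and 10882 counts, which is 207 and 212 CPM. Its log2 ratio was 0.03 (-0.01 to 0.08), an interval that spans 0, and 0.10 (0.06 to 0.14) when the libraries were scaled by total counts. E2F3 had 1918 and 3204 counts, or 58.2 and 62.4 CPM, and a log2 ratio of 0.10 (0.02 to 0.18). E2F3 is transcribed from a pair of promoters into long and short forms, and the gene count adds them. A difference between 2 members' log2 ratios does not depend on how the libraries are scaled. It was 0.41 (0.33 to 0.49) for E2F2 minus E2F1, 0.34 (0.24 to 0.44) for E2F2 minus E2F3 and 0.07 (-0.03 to 0.16) for E2F3 minus E2F1. These differences are not adjusted for the trend with transcript length described below. With both lengths and GC content adjusted for, E2F2 stood at 0.20, E2F1 at 0.13 and E2F3 at -0.07.

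The promoters of these genes are shown because E2F genes are known to be targets of their own family. Each line gives the 100 bases before the RefSeq transcription start in GRCh38.p14, read 5′ to 3′ on the gene's own strand. Capitals mark an E2F word, which is TTTCCCGC, TTTCGCGC, TTTGCCGC or TTTGGCGC on either strand. E2F1 (chr20:33686386-33686485, minus strand), E2F2 (chr1:23531234-23531333, minus strand) and E2F3 (chr6:20401779-20401878, plus strand) hold such words, and E2F7 (chr12:77065570-77065669, minus strand), which had the highest ratio of the family, does not. In GENCODE 29 on GRCh38, 5 more members lie at chr16:67192169-67198918 (E2F4), chr2:11444375-11466177 (E2F6), chr11:19224063-19241620 (E2F8), chr13:113584721-113641470 (TFDP1) and chr3:141944428-142149544 (TFDP2).
E2F1: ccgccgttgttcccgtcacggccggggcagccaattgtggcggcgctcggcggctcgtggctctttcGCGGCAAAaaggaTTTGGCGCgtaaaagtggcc
E2F2: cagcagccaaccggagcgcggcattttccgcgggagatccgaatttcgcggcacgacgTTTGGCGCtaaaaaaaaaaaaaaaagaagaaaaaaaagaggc
E2F3: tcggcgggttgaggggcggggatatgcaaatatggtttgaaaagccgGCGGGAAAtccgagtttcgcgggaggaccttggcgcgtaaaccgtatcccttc
E2F7: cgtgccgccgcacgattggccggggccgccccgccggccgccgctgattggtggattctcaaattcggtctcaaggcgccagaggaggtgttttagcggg

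Windows from 250 bases before to 50 after the start were searched on both strands, and overlapping words were each counted. The RefSeq table held 11 windows for 8 members, and E2F5 and E2F8 had no entry. E2F1 has a word from -33 to -26 and another from -20 to -13, E2F2 one from -42 to -35, E2F3 one from -53 to -46 in the window of its upstream start, and TFDP1 one from -120 to -113. Thus 4 of 8 members had a word, against 618 of the 8869 measured genes with a window, or 6.97%, and 27 of the 46 genes with a window, or 58.7%, in a list of known E2F targets. A match is a description of the letters and not a binding site. E2F1 and E2F2, each with the word TTTGGCGC close to the start, had log2 ratios of 0.03 and 0.44. E2F3 and TFDP1, with other words, had 0.10 and 0.11. The members without a word, E2F4, E2F6, E2F7 and TFDP2, had 0.17, 0.0001, 0.50 and 0.24. Across the table, 7.12% of the measured genes with a word were higher and 7.61% lower by the size rule, beside 7.20% and 9.28% of those without one. The median log2 ratio was 0.02 for the 618 genes with a word and 0.01 for the 8251 without.

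Of the canonical repressors, E2F4 was the abundant one. E2F4 had 5336 counts untreated and 9393 treated, which is 162 and 183 CPM, and a log2 ratio of 0.17 (0.13 to 0.22). E2F5 had 197 and 275 counts, or 5.98 and 5.35 CPM, and was the only member with a ratio under 1, at -0.16 (-0.43 to 0.11). That interval spans 0, so no difference in E2F5 was detectable at this depth. In GENCODE 29, 30.5% of the exon bases of the E2F5 transcript used here are overlapped by genes on the other strand, C8orf59 among them, and the sources used here do not say whether counting used strand, so the E2F5 count is uncertain. E2F6, the pocket-independent repressor, had 1133 and 1767 counts, or 34.4 CPM in both libraries, and a log2 ratio of 0.0001 (-0.11 to 0.11). Of its sampled stretches of 50 bases 11.7% also occur in other genes, its pseudogenes E2F6P1, E2F6P2 and E2F6P3 leading, and reads from these could be split between them.

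The atypical repressors differed from each other. E2F7 had 453 counts untreated and 999 treated, or 13.7 and 19.4 CPM, and its log2 ratio of 0.50 (0.34 to 0.66) was the highest in the family. This is 1.41-fold (1.26 to 1.58), so the counting interval alone reaches past the size limit while the ratio does not. E2F8, which acts redundantly with E2F7 in many tissues, had 781 and 1234 counts, or 23.7 and 24.0 CPM, and a log2 ratio of 0.02 (-0.11 to 0.15). The difference E2F7 minus E2F8 was 0.48 (0.27 to 0.69). At 0 h E2F8 had more reads than E2F7 by 23.7 to 13.7 CPM, and at 6 h by 24.0 to 19.4 CPM.

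The dimer partners were among the family's most counted genes. TFDP1, which encodes DP1, had 6924 and 11617 counts, which is 210 and 226 CPM, with a log2 ratio of 0.11 (0.06 to 0.15). TFDP2, which encodes DP2, had 6038 and 11152 counts, or 183 and 217 CPM, with a log2 ratio of 0.24 (0.20 to 0.29). TFDP2 minus TFDP1 was 0.14 (0.08 to 0.20). That order turned over with both lengths and GC content adjusted for, as described below, with TFDP2 at -0.08 and TFDP1 at 0.11. TFDP3, a related gene that is not a member, had 0 counts in each library, and a count of 0 allows a level of up to 0.0911 CPM untreated and 0.0584 treated.

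In the order of ratios the family ran E2F7, E2F2, TFDP2, E2F4, TFDP1, E2F3, E2F1, E2F8, E2F6 and E2F5. Of the 9 neighbouring pairs 6 had a difference whose counting interval spans 0. The 3 that did not were E2F2 over TFDP2, by 0.20 (0.12 to 0.27), TFDP2 over E2F4 and E2F4 over TFDP1, both by 0.07 (0.003 to 0.14 and 0.004 to 0.13). This order was not stable: adjusted for both lengths and GC content, E2F4 came first and TFDP2 fell below both E2F4 and TFDP1. Summed by role, the activators had a log2 ratio of 0.16 (0.12 to 0.19) and the canonical repressors 0.16 (0.12 to 0.21). The atypical repressors had 0.21 (0.11 to 0.32) and the dimer partners 0.17 (0.14 to 0.20). These sums are not adjusted for length, and they join unlike members. Of the 6 pairs of members compared within a role, 5 had a difference whose counting interval leaves out 0. The activators' share of all E2F counts was 59.6% untreated (58.9 to 60.3, exact binomial interval) and 59.7% treated (59.1 to 60.2), and the atypical repressors' share 6.31% (5.98 to 6.66) and 6.59% (6.33 to 6.86). For these classes the intervals of the libraries overlap. E2F6 took 5.80% (5.47 to 6.13) and 5.21% (4.98 to 5.46), which do not.

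Levels between genes are compared per kilobase of annotated transcript, as CPM per kilobase. In the untreated library E2F1 at 82.8 (80.8 to 84.8), TFDP1 at 79.4 (77.5 to 81.3) and E2F4 at 77.3 (75.2 to 79.4) led, and each interval overlaps the next. TFDP2 followed at 18.6 and E2F2 at 17.0, then E2F3 at 12.3, E2F6 at 9.97, E2F8 at 6.74, E2F5 at 3.16 (2.74 to 3.64) and E2F7 at 2.40 (2.18 to 2.63). In the treated library E2F4 stood at 87.2 (85.5 to 89.0), TFDP1 at 85.4 (83.9 to 87.0) and E2F1 at 84.6 (83.1 to 86.2), with overlapping intervals. E2F2 at 23.0 (22.4 to 23.6) and TFDP2 at 22.02 (21.6 to 22.4) had changed places, and so had E2F7 at 3.39 (3.18 to 3.60) and E2F5 at 2.83 (2.51 to 3.19), whose intervals overlap.

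**Figure D2:**
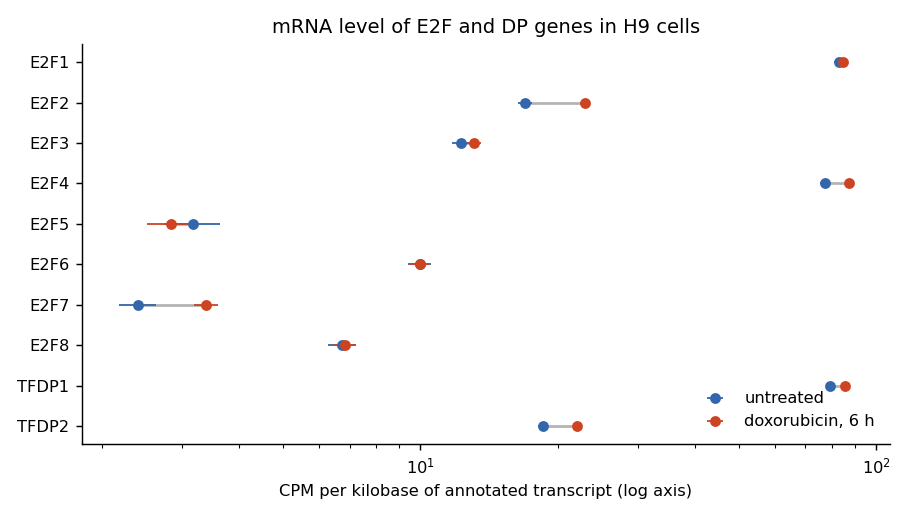
Level of each member in CPM per kilobase of annotated transcript, on a log axis, in the untreated library (blue) and after 6 h of doxorubicin (red). Bars are exact Poisson intervals for counting error, and grey lines join the libraries. E2F1, E2F4 and TFDP1 sit together near 80 in both libraries, while E2F7 and E2F5 are lowest.

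The activators made up 52.9% of the summed E2F level per kilobase untreated and 52.3% treated, and all E2Fs together stood at 2.16 and 2.15 times the summed DP level. These values depend on the transcript chosen. With the median length of each gene's annotated transcripts, TFDP2 was highest, at 264 untreated and 313 treated, and E2F4 reached 220 and 248 against 82.8 and 84.6 for E2F1. Per kilobase of coding sequence TFDP1 led, at 170 untreated and 183 treated. E2F1 stood at 158 and TFDP2 at 137 untreated, and at 161 and 162 treated. The summed E2F level was then 1.54 and 1.51 times the summed DP level, and with median transcript lengths 0.74 and 0.73 times, so which sum is larger depends on the length used. E2F1 has 1 annotated transcript, TFDP2 has 24.

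Transcript length moved with the ratio across the table, and among these genes too. Spearman's rho between annotated transcript length and log2 ratio was 0.55 over 11043 measured genes with a length. Over the 10 members it was 0.65, a description of genes that share the same 2 libraries. E2F7 and E2F2, with transcripts of 5740 and 5191 bases, have the longest in the family after TFDP2, with 9857, and E2F5 has the shortest, with 1890. With transcript length, coding length and GC content all adjusted for by regression, the log2 ratio of E2F7 was 0.23 and that of E2F2 0.20. E2F4, at 0.24, then had the highest value, from a transcript of 2096 bases, and E2F1 stood at 0.13 and TFDP1 at 0.11. TFDP2 at -0.08, E2F3 at -0.07 and E2F8 at -0.15 changed sign, and E2F5 and E2F6 stood at -0.01 and 0.08. With transcript length alone, E2F5 and E2F6 changed sign as well, to 0.05 and -0.04, while E2F4, E2F7 and E2F2 stood at 0.34, 0.29 and 0.25. The adjusted median was 0.09, and 0 members passed the size rule on that scale. The part of length in these ratios was not tested beyond this.

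**Figure D3:**
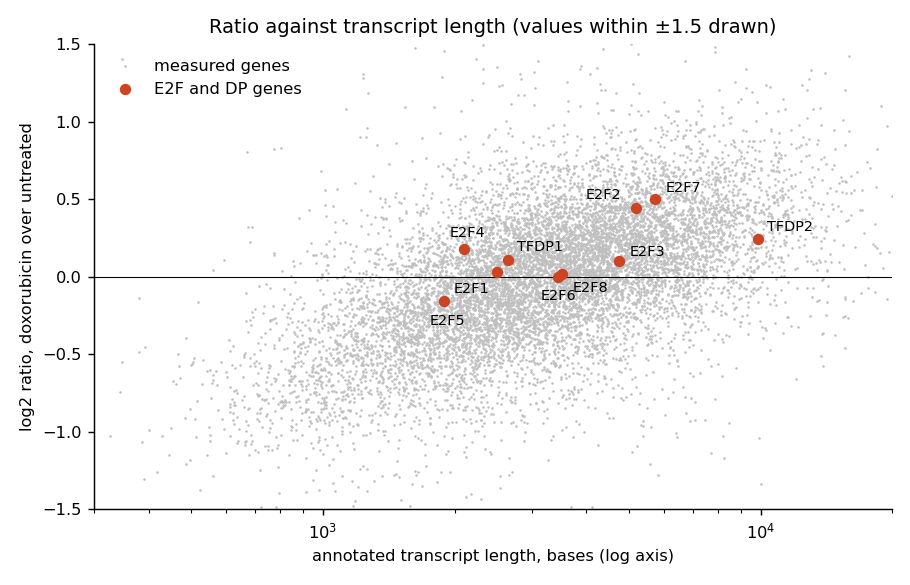
Log2 ratio of doxorubicin over untreated against annotated transcript length in bases, on a log axis, for all measured genes with a length (grey) and the 10 family members (red). Grey points rise from left to right, with rho at 0.55, and relative to a lowess curve through them (not drawn) E2F4 lies at 0.34 and TFDP2 at -0.11.

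The genes around the family were read from 6 lists, each beside the 7.26% of all measured genes that were higher and the 9.57% that were lower. In the list of pocket proteins with the G1 kinases and inhibitors upstream of them, 15 of 19 were measured, of which 1 was higher, 2 were lower and 12 were neither, with a median log2 ratio of -0.08. CDK6, a kinase that phosphorylates pocket proteins, had 2295 and 5798 counts and was 1.62-fold higher (1.54 to 1.70). CDKN1C, which encodes the inhibitor p57, had 497 and 402 counts and was 1.93-fold lower (1.69 to 2.20). CDKN2D, which encodes p19INK4D, had 2499 and 2369 counts and was 1.64-fold lower (1.55 to 1.74). Adjusted for lengths and GC content, CDK6 and CDKN2D were at 0.57 and -0.31, under the size limit, and CDKN1C at -0.67 was still past it.

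The regulators nearest to the E2Fs were unequal in level, and these genes are named after their values were seen. RB1, the retinoblastoma gene itself, had only 35 counts untreated and 21 treated, or 1.06 and 0.41 CPM, below the count minimum. On those counts its log2 ratio was -1.36 (-2.23 to -0.56), and with a minimum of 10 counts, or none, it was called lower. RBL1, which encodes p107, had 2419 and 4450 counts, or 73.4 and 86.6 CPM, and RBL2, which encodes p130, had 2975 and 6250, or 90.3 and 122 CPM. Per kilobase RB1 stood at 0.222 untreated and 0.0853 treated, against 12.9 and 15.2 for RBL1 and 18.4 and 24.8 for RBL2. The log2 ratio of RBL1 was 0.24 (0.17 to 0.31) and that of RBL2 0.43 (0.37 to 0.49), under the size limit, and 20.2% of the RBL2 exon bases are overlapped by other genes. CDKN2A and CDKN2B, which encode the inhibitors p16INK4A and p15INK4B, had 0 counts in both libraries. CDKN1A, which encodes the inhibitor p21, had 52 and 84 counts, or 1.58 and 1.64 CPM. Its log2 ratio was 0.05 (-0.46 to 0.58), an interval that spans 0. Nearly all reads of the 3 pocket protein genes thus came from RBL1 and RBL2.

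The MuvB core joins E2F4 and p130 in the repressive DREAM complex, and B-MYB (MYBL2) and FOXM1 in activating complexes. All 8 genes of the core and its partners were measured, with 1 higher, 1 lower and a median of -0.10. LIN52 had 387 and 923 counts and was 1.53-fold higher (1.36 to 1.73). LIN37 had 786 and 698 counts and was 1.76-fold lower (1.58 to 1.95), but 65.4% of its exon bases are overlapped by other genes, so its count is uncertain. Adjusted for lengths and GC content LIN52 was at 0.87 and LIN37 at -0.45, and the list's median was -0.32. In the Polycomb complex that holds E2F6, all 12 were measured, 1 was higher and 0 lower, with a median of -0.17. MGA, its large scaffold protein, had 948 and 2628 counts and was 1.78-fold higher (1.65 to 1.92), but stood at 0.33 after adjustment, from a transcript of 12042 bases.

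Known E2F targets of G1/S and S phase, such as replication helicase and nucleotide synthesis genes, were all 54 measured. By the size rule 3 were higher, 0 lower and 51 neither, beside 7.26% of all measured genes higher and 9.57% lower. Their median log2 ratio was 0.14, beside 0.01 for all measured genes, and 0.06 after adjustment. The counting interval lay above a ratio of 1 for 33 of the 54 targets, below it for 14 and spanned it for 7. Among all measured genes 38.1% had intervals above and 36.9% below. Such intervals narrow as counts rise, and these are not adjusted for length. BRCA2, of homologous recombination, had 766 and 2073 counts and a log2 ratio of 0.79 (0.68 to 0.92). ORC1, of the origin recognition complex, had 1760 and 4527 counts and a log2 ratio of 0.72 (0.64 to 0.80). MCM2, of the replicative helicase, had 12890 and 32173 counts and a log2 ratio of 0.68 (0.65 to 0.71). Other genes overlap 32.0% of its exon bases. After adjustment these stood at 0.44, 0.52 and 0.46, under the size limit. The 27 targets with an E2F word had a median of 0.14 and the 19 without one 0.08. After adjustment these medians were 0.045 and 0.036, and by the size rule 1 of the 27 and 2 of the 19 were higher.

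Of 16 apoptosis genes described as E2F1 targets 13 were measured, of which 0 were higher and 1 lower, with a median of 0.04. BBC3, which encodes the BH3-only protein PUMA, had 2530 and 2173 counts and was 1.82-fold lower (1.71 to 1.92), at -0.26 after adjustment. BCL2L11, named after its value was seen, had 4461 and 10390 counts and was 1.49-fold higher (1.44 to 1.55), just under the size limit. It stood at 0.54 after adjustment, and other genes overlap 13.9% of its exon bases. TP73, a p53 relative that E2F1 is known to induce, had 2 counts in each library. Enzymes and cofactors that act on E2F proteins were all 18 measured, with 2 higher, 0 lower and a median of 0.08. HCFC1, a cofactor that E2F proteins recruit with histone methyltransferases, had 6025 and 20490 counts and was 2.18-fold higher (2.12 to 2.25). EP300, an acetyltransferase that acetylates E2F1, had 1838 and 5265 counts and was 1.84-fold higher (1.74 to 1.94). HCFC1 at 0.71 was still past the size rule after adjustment and EP300 at 0.31 was not.

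**Figure D4:**
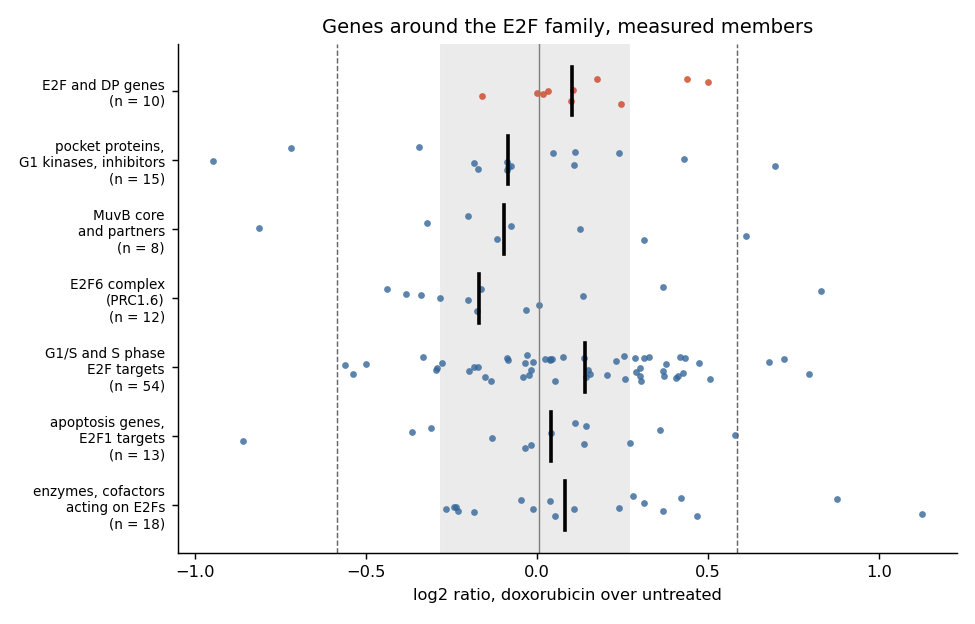
Log2 ratio of doxorubicin over untreated for the measured members of the family (red) and of the 6 lists (blue), 1 point per gene, with black bars at the medians. The shaded band is the interquartile range of all measured genes, the grey line their median and the dashed lines the 1.5-fold limit. The medians lie between -0.17 for the E2F6 complex and 0.14 for the G1/S and S phase targets, all inside the band.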

How the data were processed

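The values were raw read counts per gene symbol that the authors deposited, 1 column per library, neither scaled nor corrected for length. Per the submitters' processing notes, HISAT2 and featureCounts were used with the hg19 build. The sources used here give no versions, annotation, strand setting or handling of multiply aligned reads. Library sizes were scaled by TMM in edgeR 4.0.16 (R 4.3.3). After adding 0.5 to each count, log2 ratios were taken, with exact Clopper-Pearson intervals at 95% (scipy 1.17.1). The code of the size rule was run on simulated counts with Poisson noise only. Those counts hold neither variation between replicates nor a trend with length, so that run says nothing of either. Differences between 2 members used the exact conditional odds ratio. Lengths, GC content, overlaps (any other gene, either strand) and shared stretches of 50 bases came from GENCODE 29 on GRCh38, another build than that of the counts, using each gene's longest transcript paired with RefSeq. Of measured genes 98.2% had a length. Adjusted ratios are residuals from regression splines, or from a lowess curve of span 0.3 (statsmodels 0.14.6). Promoters came from RefSeq.

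From each list the text names up to 3 highest and 3 lowest members past the size rule, and other listed genes where it says so. The members and lists were chosen with earlier results of these data known. Alternatives were DESeq2 1.42.0 size factors, total counts, other count minimums, size limits, intervals and added counts, and the length adjustments.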

Additional observations from a re-analysis of the deposited data

How the results depend on the processing

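The count of family members past the size rule was 0 in each direction under every alternative except a looser limit on the log2 ratio, 0.32, which gave 2 higher (E2F7 and E2F2) and 0 lower. That looser limit called 2294 of all measured genes higher and 2416 lower. It gave 2 higher and 3 lower in the pocket protein list, 2 higher and 3 lower in the E2F6 complex, 14 higher and 4 lower among the G1/S and S phase targets, 2 and 2 among the apoptosis genes, and 5 higher among the enzymes and cofactors. A limit of 2-fold gave 128 and 175 of all genes, 1 higher among the enzymes and cofactors, and 0 in the other lists. Total-count scaling gave 1 higher apoptosis gene and raised the median of all measured genes from 0.01 to 0.07. It moved 5 of the 10 members outside their counting interval, and 7 members, E2F1 now among them, then had intervals above a ratio of 1 and 3 spanned it. A minimum of 500 summed counts left out E2F5, and a minimum of 10, or none, gave 3 lower in the pocket protein list, RB1 being the third.

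Adjustment for transcript length gave 540 of all genes higher and 515 lower, and the joint adjustment for both lengths and GC content 466 and 395. Each moved 7 of the 10 members outside their counting interval. With transcript length alone, 5 members' intervals lay above a ratio of 1, 4 spanned it and 1 lay below. With the joint adjustment 5 lay above, 3 spanned it and 2 lay below. Under both adjustments, the pocket protein list had 0 higher and 1 lower, MuvB 0 lower, the E2F6 complex 0 higher and the enzymes and cofactors 1 higher. The fuller one also gave 1 higher and 1 lower S phase target and 0 lower apoptosis genes. Those targets were PRIM1 at 0.72 and NASP at -0.64, which were neither before adjustment and are named for this call. Other genes overlap 35.3% of the PRIM1 exon bases. An adjustment without transcript length, for GC content and coding length, added once the data had been seen, gave 558 of all genes higher and 486 lower, 1 lower in the pocket protein list, 0 higher in the E2F6 complex, 0 higher and 1 lower S phase target, 1 higher and 0 lower apoptosis gene, and 1 higher enzyme or cofactor. The cause of these moves was not tested. With this adjustment E2F8 stood at -0.24, E2F7 at 0.26 and E2F2 at 0.42.

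Other length measures for the levels were also chosen after seeing the data. The activators' share of the summed E2F level was 56.4% untreated and 57.0% treated per coding length, and 33.3% and 32.9% with median transcript lengths. No paired analysis was possible because each condition has 1 library, and for the same reason no replicate could be left out. Depth limits E2F5 and E2F7 most, with 197 and 453 counts untreated.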
